A study of Mus musculus with 4 samples.

Results

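The 10 genes described here encode the main parts of antigen presentation by major histocompatibility complex (MHC) class I. They are the heavy chains H2-K1, H2-D1, H2-Q7 and H2-T23, the light chain B2m, the peptide transporter subunits Tap1 and Tap2, the loading chaperone Tapbp, and the immunoproteasome subunits Psmb8 and Psmb9. They were chosen by name, and all 10 were found among the 13838 genes of the deposited matrix of unique molecular identifier (UMI) counts. Their levels were followed over the 17 refined cell types of the authors' annotation and over 4 libraries of cells washed from mouse airspaces.

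All mice were C57BL/6, and their age and sex are not given in the sources used here. HDM+APM mice breathed an aerosol of Afghanistan particulate matter (APM) at 5 mg/m3 for 6 h a day on 12 days and later received the allergen house dust mite (HDM), which provokes allergic airway inflammation. HDM mice breathed filtered air and received HDM. APM mice breathed APM and were given PBS, and control mice breathed filtered air and were given PBS. Instillations began 9 days after the last day of exposure, with 10 µg of HDM or PBS into the nose on days 22 and 29. The challenges fell on days 36, 37 and 38 and lavage on day 39. Each group is 1 library made from the pooled lavage of 7 mice, so no difference below has a replicate check, no p-value is given, and mice cannot be told apart within a library. Every difference describes these 4 libraries.

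The libraries held 994 to 3918 cells, 1920648 to 15170333 UMIs and a median of 1380 to 4780 UMIs per cell, lowest in HDM and highest in HDM+APM for the median. The 10 genes made up 0.585% of UMIs in HDM+APM, 0.976% in HDM, 0.448% in APM and 0.561% in control. A level below is CPM, the UMIs of a gene divided by the total UMIs of the same cells and scaled to 1000000. A 3′ kit tags each transcript once, so CPM of different genes can be set side by side without division by length, although capture may differ between genes. Each level carries an exact Poisson 95% interval, each ratio an exact conditional binomial 95% interval and each share an exact (Clopper-Pearson) 95% interval, in parentheses, and all of them cover counting error only. Of the authors' cell types, T cells had 3 T cell markers among their 10 leading genes, granulocyte-like cells 3 neutrophil markers and dendritic cells 2 dendritic cell markers. Among the 10 leading genes of the cells named classical monocyte, 2 mark monocyte-derived macrophages and 0 mark classical monocytes. Among those of the cells named epithelial, 4 mark red blood cells and 2 mark epithelium. The cluster Macrophage 8 had 1 epithelial marker and no macrophage marker among its leading genes. Macrophage 2, 7, 9 and 10 had no macrophage marker there either, and Macrophage 4 and 5 also had 1 epithelial marker. Summed alveolar macrophage markers were highest in Macrophage 8, at 26732 CPM with the libraries summed. Within HDM they came to 37949 CPM in Macrophage 8 and 36670 in the other 9 macrophage clusters together. The order was reversed in HDM+APM (35332 and 35951), APM (6758 and 12092) and control (7628 and 11241). Monocyte-derived macrophage markers came to 2091 CPM in Macrophage 8, against 76.2 to 236 CPM in the other 9. Macrophage 8 was kept apart from the other 9 macrophage clusters, which were also summed as macrophages other than 8. Macrophage 6, part of that sum, had 2 epithelial markers and 1 alveolar macrophage marker among its leading genes.

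As background, class I molecules show peptides from inside the cell to CD8 T cells. Proteasomes cut proteins into peptides, and interferons swap the constitutive catalytic subunits for immunoproteasome subunits, among them Psmb8 in place of Psmb5 and Psmb9 in place of Psmb6. The transporter formed by Tap1 and Tap2 pumps the peptides into the endoplasmic reticulum, where Tapbp (tapasin) holds the empty class I molecule beside it. H2-K1 and H2-D1 are the classical heavy chains of C57BL/6 mice. H2-Q7 is a non-classical heavy chain of the Qa-2 group, and H2-T23 encodes Qa-1, which presents peptides to the CD94/NKG2 receptors of natural killer cells. B2m (beta-2 microglobulin) is the light chain that nearly all of these heavy chains need to reach the cell surface. In the airspaces the alveolar macrophage is the resident phagocyte, and T cells, dendritic cells and granulocytes enter during inflammation.

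Of the 10 genes, 9 lie on chromosome 17 in the mouse MHC and B2m lies on chromosome 2 (build mm10, GENCODE annotation). Tapbp spans chr17:33915899-33929292 on the plus strand and H2-K1 chr17:33996017-34000347 on the minus strand. Psmb9 (chr17:34181987-34187764, minus strand), Tap1 (chr17:34187553-34197225, plus), Psmb8 (chr17:34197721-34201454, plus) and Tap2 (chr17:34203527-34216321, plus) follow each other in 1 block. H2-D1 spans chr17:35262730-35267499 and H2-Q7 chr17:35439155-35443773, both on the plus strand, and H2-T23 spans chr17:36029773-36032855 on the minus strand. B2m spans chr2:122147686-122153083 on the plus strand, inside the annotated span of Patl2 on the opposite strand. Psmb9 and Tap1 share 212 bases on opposite strands. Tapbp shares 3422 bases with Zbtb22 on the same strand, and Zbtb22 had 422 UMIs in all cells against 6387 for Tapbp. The sources used here do not say whether counting used strand. Heavy chain genes are close copies of each other, and H2-Q7 is nearly identical to H2-Q6 over long stretches, so the authors' counting could have split or lost reads among them.

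Promoter sequences were matched for 9 of the 10 genes (all but Tap2) in RefSeq, build GRCm38.p6, as the 250 bases before the RefSeq start. They are shown because the heavy chains, B2m and the paired Psmb9 and Tap1 genes are set against each other below, and because members of this family are known to share upstream elements. H2-K1 is chr17:34000348-34000597 on the minus strand, H2-D1 chr17:35262844-35263093 on the plus strand, H2-Q7 chr17:35438905-35439154 on the plus strand and B2m chr2:122147437-122147686 on the plus strand. The last line is the whole interval of 225 bases between the divergent starts of Psmb9 and Tap1, chr17:34187331-34187555, read on the plus strand towards Tap1. Capitals mark the matches to the motifs named after the sequences, each read 5′ to 3′.

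H2-K1: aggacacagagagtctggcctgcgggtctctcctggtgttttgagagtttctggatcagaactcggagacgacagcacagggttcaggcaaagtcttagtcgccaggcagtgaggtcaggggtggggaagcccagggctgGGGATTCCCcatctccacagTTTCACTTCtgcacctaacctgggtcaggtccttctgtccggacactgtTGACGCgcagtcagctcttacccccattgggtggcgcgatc

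H2-D1: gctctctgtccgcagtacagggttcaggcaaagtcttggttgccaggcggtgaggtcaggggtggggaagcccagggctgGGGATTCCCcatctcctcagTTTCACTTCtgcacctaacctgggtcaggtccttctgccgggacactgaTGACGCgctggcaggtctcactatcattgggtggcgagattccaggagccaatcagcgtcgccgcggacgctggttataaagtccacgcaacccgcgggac

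H2-Q7: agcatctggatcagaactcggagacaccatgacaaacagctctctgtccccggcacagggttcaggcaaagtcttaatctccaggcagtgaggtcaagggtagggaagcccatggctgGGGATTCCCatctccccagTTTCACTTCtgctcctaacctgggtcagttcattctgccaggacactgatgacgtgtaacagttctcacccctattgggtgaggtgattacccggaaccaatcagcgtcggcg

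B2m: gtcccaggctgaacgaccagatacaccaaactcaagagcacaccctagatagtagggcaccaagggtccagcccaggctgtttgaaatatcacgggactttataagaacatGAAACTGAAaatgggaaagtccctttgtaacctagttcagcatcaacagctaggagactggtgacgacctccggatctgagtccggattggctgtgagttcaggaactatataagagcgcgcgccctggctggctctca

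Psmb9-Tap1 interval: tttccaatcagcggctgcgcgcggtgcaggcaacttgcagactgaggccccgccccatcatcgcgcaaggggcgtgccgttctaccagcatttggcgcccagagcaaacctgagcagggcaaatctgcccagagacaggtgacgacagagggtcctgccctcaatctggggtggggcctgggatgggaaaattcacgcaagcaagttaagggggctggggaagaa

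The motifs, chosen with these sequences in view, were searched on both strands. The kappa B word GGGATTCCC stood in the promoters of H2-K1, H2-D1 and H2-Q7, at 110 to 102, 170 to 162 and 132 to 124 bases before the start, and in 0.301% of the 32851 promoters of the table. The same 3 promoters held the interferon response word GAANNGAAA on the opposite strand, read here as TTTCACTTC, at 90 to 82, 150 to 142 and 113 to 105 bases before the start, and 6.31% of all promoters held it. TGACGC, the site alpha word, stood in H2-K1 and H2-D1 and in 6.12% of all promoters. The interferon response word GAAANNGAA stood in B2m, as GAAACTGAA, and in H2-T23, and in 7.13% of all promoters. TTCNNNGAA, the GAS (gamma-activated site) word, stood in Psmb8 and in 7.02% of all promoters. No pair of these matches shared a base. The Psmb9-Tap1 interval held none of the 5 words. These are matches of letters in a window and carry no measurement of binding.

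Across cell types, summed over the 4 libraries, the 10 genes together were highest in dendritic cells and lowest in the cells named epithelial, although without mitochondrial and ribosomal protein genes T cells stood above dendritic cells. They reached 11341 CPM in dendritic cells (10955 to 11736), 10003 in T cells (9820 to 10189) and 9043 in granulocyte-like cells (8570 to 9535). Macrophage 8 followed at 8174 CPM (8027 to 8324). The other macrophage clusters ran between 6942 CPM in Macrophage 3 and 3914 in Macrophage 6. B cells 1 stood at 6510 CPM, B cells 2 at 4582, and the cells named classical monocyte at 5434. The cells named epithelial stood at 1713 CPM (1547 to 1892). Red blood cell markers came to 416303 CPM in those cells and epithelial markers to 141886, and both are in the total that CPM is divided by. Their part in the low level was not tested. Among the highest 6 types each interval was apart from the next, whereas Macrophage 9 and the cells named classical monocyte overlapped, as did those cells and Macrophage 2. Library and cell type are entangled in these sums, since the cells named classical monocyte all came from HDM+APM and 3501 APM and 3776 control cells were among the 7383 macrophages other than 8.

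**Figure D1:**
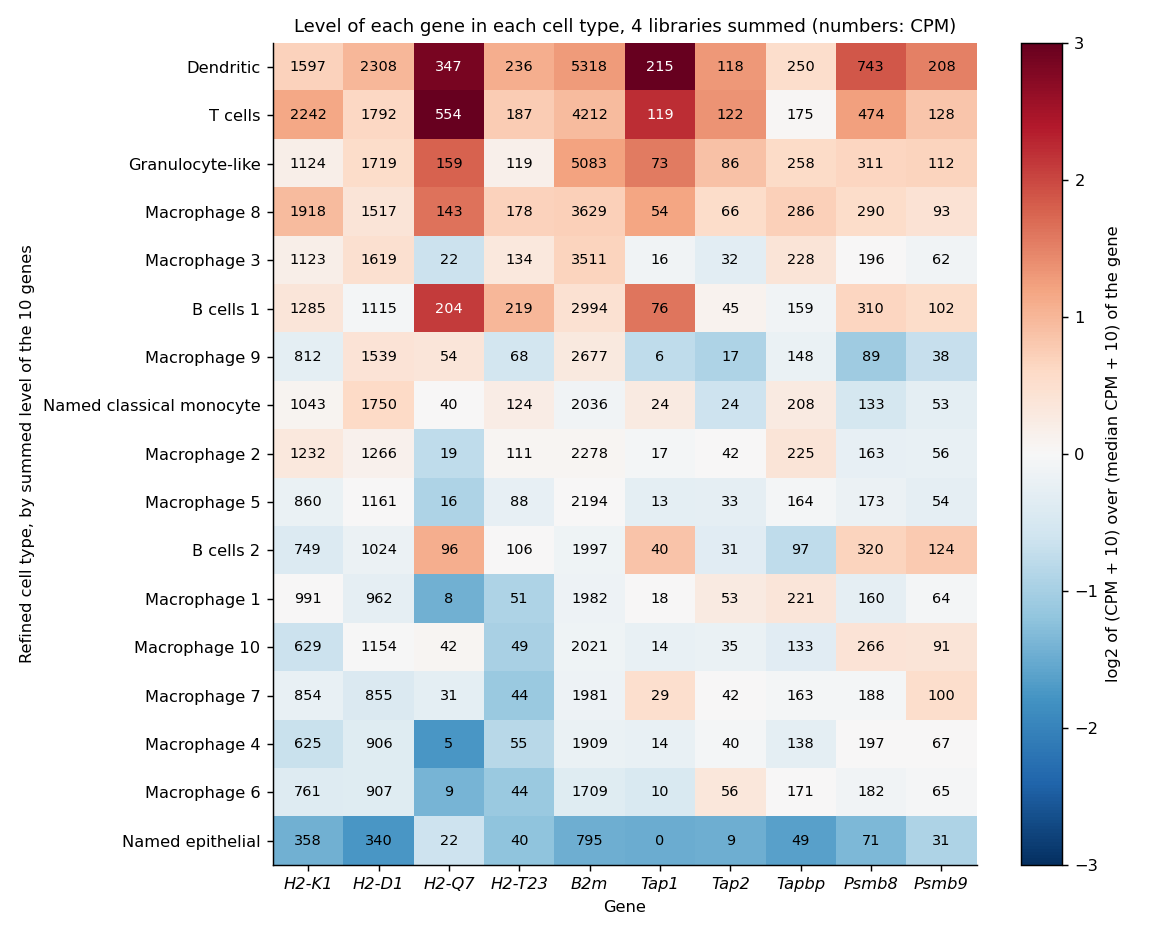
Level of each of the 10 genes in each refined cell type, 4 libraries summed. Rows are cell types ordered from the highest summed level down, columns are genes, and the number in a cell is its CPM. Colour is the log2 of that level over the gene's median cell type, each with 10 CPM added. H2-Q7 and Tap1 have the widest colour range. The bottom row, the cells named epithelial, holds the lowest level of 9 of the 10 genes, H2-Q7 being lowest in Macrophage 4. In that row red blood cell markers came to 416303 CPM of the total.

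The heavy chains did not share 1 order. H2-K1 was highest in T cells at 2242 CPM (2155 to 2330), then in Macrophage 8 at 1918 (1847 to 1992) and dendritic cells at 1597 (1454 to 1750), and lowest outside the cells named epithelial in Macrophage 4 at 625.1. Within HDM the first 2 changed places, with 2406 CPM in T cells and 2915 in Macrophage 8, a ratio of 0.825 (0.769 to 0.886). H2-D1 was highest in dendritic cells at 2308 CPM (2136 to 2491). The next 6 types in its order ran from 1792 CPM in T cells to 1517 in Macrophage 8, each overlapping its neighbour. H2-Q7 had the widest range of the 9 genes detected in every type, from 553.8 CPM in T cells (511 to 599) to 4.82 in Macrophage 4 (2.63 to 8.09 on 14 UMIs), a 115-fold span. Dendritic cells followed at 347 CPM and B cells 1 at 204, whereas the 7 macrophage clusters 1 to 7 lay between 4.82 and 30.6 CPM. The 115-fold span crosses libraries, since 493 of 694 T cells came from HDM and 1033 of 1058 Macrophage 4 cells from APM. Within HDM, H2-Q7 stood at 576 CPM in T cells, 281 in Macrophage 8 and 152 in macrophages other than 8. H2-T23 was highest in dendritic cells (236 CPM), B cells 1 (219), T cells (187) and Macrophage 8 (178), and each of these overlapped the next.

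Within libraries of at least 20 cells of a type the summed level of the 10 genes varied by type in its own way. T cells were close to each other, at 10468 CPM in HDM+APM, 9880 in HDM and 9683 in APM, and dendritic cells at 11477 in HDM and 11302 in APM. Granulocyte-like cells were spread from 12007 CPM in HDM+APM through 8743 in HDM to 6780 in APM. Macrophage 8 had a high and a low pair of libraries, with 9005 CPM in HDM+APM and 10634 in HDM, against 4971 in APM and 4913 in control. Set against macrophages other than 8 of the same library, Macrophage 8 had a ratio of 1.18 in HDM+APM (1.12 to 1.25), 1.14 in HDM (1.09 to 1.20), 1.12 in APM (1.07 to 1.18) and 0.875 in control (0.814 to 0.939). T cells had a ratio of 1.37 in HDM+APM (1.30 to 1.45), 1.06 in HDM (1.01 to 1.11) and 2.19 in APM (2.02 to 2.37), and dendritic cells of 1.23 in HDM (1.16 to 1.31) and 2.55 in APM (2.39 to 2.73). In HDM the T cells were below Macrophage 8, at a ratio of 0.929 (0.896 to 0.963). B cells 1 stood at 5297 CPM in HDM+APM and 7137 in HDM, with intervals apart.

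B2m, the most abundant of the 10, reached 5318 CPM in dendritic cells (5055 to 5591) and 5083 in granulocyte-like cells (4730 to 5456), which overlapped, and then 4212 in T cells. Among macrophages it was 3629 CPM in Macrophage 8 and 3511 in Macrophage 3, which overlapped, and 1709 to 2677 CPM in the other 8 clusters. Tap1 was highest in dendritic cells at 215 CPM (165 to 276), then in T cells at 119 and B cells 1 at 75.6. It had 0 UMIs in the cells named epithelial, where the exact interval reaches 16.3 CPM and a floor of 3 counts is 13.2 CPM. Tap2, its partner in the transporter, was level between T cells (122 CPM) and dendritic cells (118 CPM), whose intervals overlapped. Tapbp was the 1 member led by Macrophage 8, at 286 CPM (259 to 315), overlapping granulocyte-like cells at 258, and it was low in B cells 2 at 96.5. Psmb8 was highest in dendritic cells at 743 CPM (647 to 849) and T cells at 474 (434 to 515), and Psmb9 in dendritic cells at 208 (159 to 268). Macrophage 9 was the lowest macrophage cluster for Tap1 (6.35 CPM on 4 UMIs), Tap2 (17.5), Psmb8 (88.9) and Psmb9 (38.1), yet its H2-D1 of 1539 CPM was above that of 6 of the 7 clusters Macrophage 1 to 7.

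The swap of proteasome subunits was read as the share of Psmb8 among Psmb8 and Psmb5 UMIs. It was 84.9% in dendritic cells (79.9 to 89.1), 78.1% in B cells 1, 76.7% in T cells and 76.0% in B cells 2, the last 3 overlapping. It was 65.7% in the cells named classical monocyte (60.3 to 70.8) and 63.1% in Macrophage 8 (59.3 to 66.8), against 38.1% in macrophages other than 8 (37.2 to 39.0). Within HDM+APM the share was 68.3% in Macrophage 8 (62.1 to 74.1) and 47.7% in macrophages other than 8 (38.9 to 56.6). Within HDM it was 68.1% in Macrophage 8 (61.4 to 74.3) and 52.3% in macrophages other than 8 (42.5 to 61.9), intervals that overlap narrowly. Within APM it was 54.2% in Macrophage 8 (45.7 to 62.5) and 36.9% in macrophages other than 8 (35.6 to 38.2), and within control it was 44.6% (31.3 to 58.5) and 38.6% (37.5 to 39.8), where the intervals overlap. Macrophage 9 had the lowest share, 16.0% (12.3 to 20.3). The Psmb9 share among Psmb9 and Psmb6 UMIs was lower throughout, at 56.6% in dendritic cells, 52.7% in B cells 2 and 46.5% in T cells, against 15.2% in macrophages other than 8 and 4.44% in Macrophage 9. The constitutive subunits themselves were at their highest in Macrophage 9, with 466.5 CPM of Psmb5, 820.4 of Psmb6 and 265 of Psmb7. The third immunoproteasome subunit, Psmb10, made up 69.0% of Psmb10 and Psmb7 UMIs in T cells, 46.2% in dendritic cells, 51.9% in macrophages other than 8 and 18.9% in Macrophage 9 (13.8 to 25.0).

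**Figure D2:**
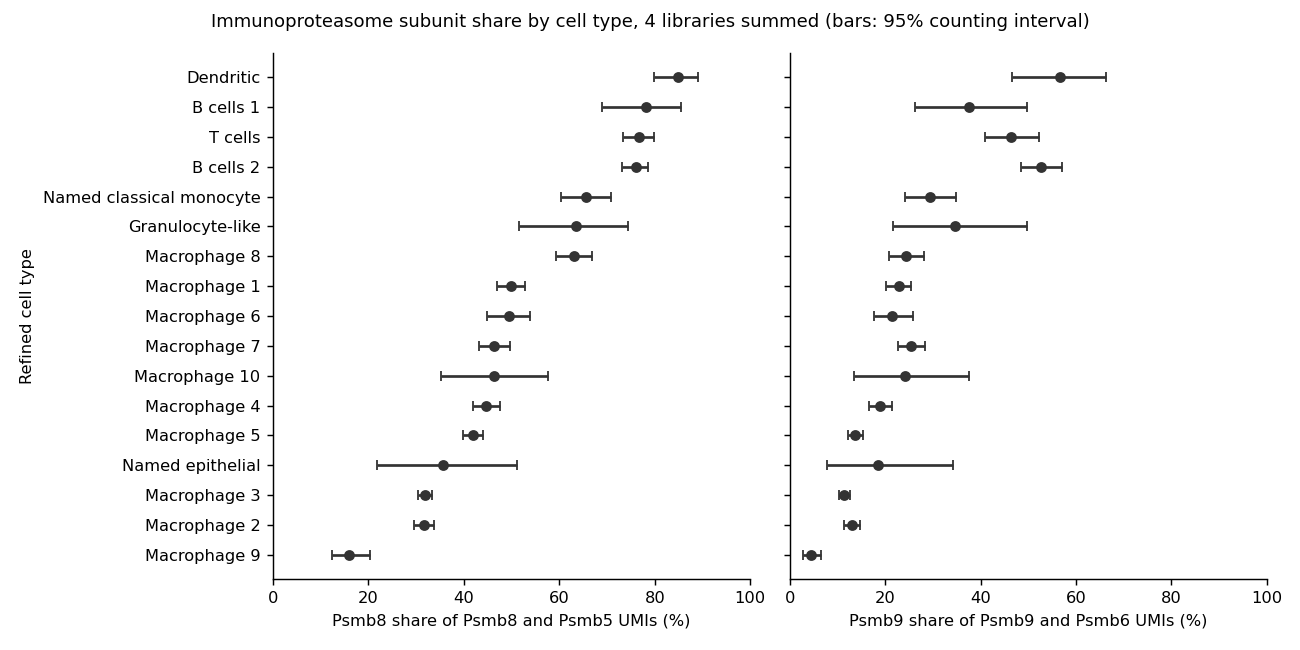
Share of the immunoproteasome subunit among the UMIs of each pair, by refined cell type with the 4 libraries summed; the left panel shows Psmb8 of Psmb8 and Psmb5, the right panel Psmb9 of Psmb9 and Psmb6, in percent, and bars are exact 95% intervals for counting error. Dendritic cells lead both panels, at 84.9% and 56.6%, and Macrophage 9 is lowest in both, at 16.0% and 4.44%.

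Over the 17 cell types, log2 levels (10 CPM added) of the members were most alike for Psmb8 and Psmb9 (Pearson r 0.96, Spearman rho 0.95), which is also the closest match either gene had among the 6101 genes with at least 500 UMIs. Tap1 followed Psmb8 (r 0.92) and Psmb9 (r 0.91), and H2-D1 followed B2m (r 0.89). Tapbp and H2-Q7 were the least alike (r 0.23). H2-Q7 was closest to H2-Q6 (r 0.97), a near copy with which it may share reads. H2-K1 was closest to Samhd1, a nucleotide hydrolase induced by interferon (r 0.85), H2-T23 to Bst2, or tetherin (r 0.88), Tap1 to Psme1, an activator subunit of the immunoproteasome (r 0.95), Tap2 to Stat2, a mediator of interferon signalling (r 0.92), Tapbp to Znfx1 (r 0.90) and B2m to Mllt6 (r 0.91). The 5 other genes most like the mean of the 10 were Mllt6 (r 0.92), Psme1 (0.91), Ppp1r12a (0.91), Ogfr (0.89) and Sp110 (0.89). The 17 points share 4 libraries, and their depths differ, so these values are descriptions. With 50 CPM added 3 of the 5 names were the same, and with each cluster taken per library 1 was. Per library the closest gene also differed for 8 of the 10 members, all but H2-Q7 and Psmb9.

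The receiving side was read from a list of 8 class I receptor genes. Not all 8 are reported, and those named here were picked after their values were seen, so no summary of the list is drawn. Among those named, Pirb was led by a macrophage cluster, and the levels of the others are given for T cells. Cd8a and Cd8b1, the chains of the CD8 co-receptor of class I, stood at 104 CPM (86.0 to 124) and 195.5 CPM (171 to 223) there, against 1.39 and 6.27 CPM in Macrophage 8. Klrd1 (CD94) and Klrk1 (NKG2D) were likewise highest in T cells, at 144 and 184 CPM. Pirb, an inhibitory receptor for class I on myeloid cells, was highest in Macrophage 3 at 250 CPM and stood at 10.6 CPM in T cells.

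HDM against control asks what allergen did without dust. In Macrophage 8, with 139 HDM and 110 control cells, H2-K1 stood at 2915 CPM in HDM (2761 to 3076) and at 909 in control (766 to 1071). B2m stood at 4699 CPM in HDM and 1977 in control, H2-Q7 at 281 in HDM and 38.1 in control, and H2-T23 at 250 in HDM and 31.8 in control. The ratios were 3.21-fold for H2-K1 (2.70 to 3.84), 2.38-fold for B2m (2.11 to 2.69), 7.36-fold for H2-Q7 (3.29 to 20.4) and 7.88-fold for H2-T23 (3.28 to 24.7), the last 2 on 6 and 5 control UMIs. H2-D1, in contrast, was at 1585 CPM in HDM and 1437 in control, a ratio of 1.10 (0.949 to 1.29). Tap1 was 3.00-fold higher in HDM (1.07 to 11.6), Tap2 2.10-fold (0.938 to 5.54) and Psmb8 1.99-fold (1.29 to 3.17). Tapbp at 1.47-fold (1.01 to 2.2) and Psmb9 at 1.31-fold (0.685 to 2.72) stayed under the fold of 1.5 used as the call.

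A call here is a CPM ratio of at least 1.5 either way among genes with at least 20 UMIs over both libraries. By it 7 of the 10 were higher in HDM in Macrophage 8 and 0 were lower, against 25.8% higher and 18.4% lower (44.3% either way) of the 4024 genes tested. The median log2 ratio of the 10 was 1.16, beside 0.08 for all genes tested. Marker sums in Macrophage 8 differed between the libraries, and whether the cells or their state differed cannot be told from them. Summed alveolar macrophage markers came to 37949 CPM in HDM and 7628 in control, with 0 of 12 markers at 0 UMIs in either, and epithelial markers to 618 CPM in HDM, with 3 of 8 at 0, and 16056 in control, with 1 of 8 at 0. Red blood cell markers came to 6195 CPM in HDM and 375 in control, and median depth was 3056 UMIs in HDM and 1176 in control. The part of these differences in the result was not tested. Removal of the cells that the coarse annotation called epithelial, 13 in Macrophage 8 over the 4 libraries, gave a median log2 ratio of 1.13. How much of the epithelial marker RNA those cells held was not measured, so epithelial admixture is not tested by their removal.

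Macrophages other than 8 gave the same direction on 60 HDM and 3776 control cells. H2-K1 was 2.10-fold higher in HDM (1.93 to 2.28), at 2282 CPM in HDM and 1087 in control. H2-Q7 was 7.72-fold higher (5.40 to 10.8), at 152 CPM in HDM and 19.7 in control, and Tap1 3.43-fold (1.89 to 5.77), at 57.1 CPM in HDM and 16.7 in control. H2-T23 was 2.61-fold higher (1.98 to 3.39), Psmb9 1.81-fold (1.21 to 2.62), B2m 1.69-fold (1.59 to 1.79) and Tap2 1.62-fold (0.939 to 2.62). H2-D1 had a ratio of 1.13 (1.02 to 1.26), Tapbp of 1.35 (1.07 to 1.69) and Psmb8 of 1.24 (0.937 to 1.61). Again 7 of 10 were called higher and 0 lower, against 32.0% higher and 13.1% lower (45.2% either way) of the 10358 genes tested. The median log2 ratio was 0.81 beside 0.22 for all genes. HDM held far fewer UMIs here than control, so a gene with 0 HDM UMIs, set to 3, could be called higher. The 32.0% and the 0.22 include such genes. How far they raise both was not tested, so neither is read as a shift of the library. With the median ratio of all genes set to 1, which carries the same limit, the log2 ratio was 0.85 for H2-K1, 0.54 for B2m and -0.04 for H2-D1. The mix of clusters differed, since Macrophage 5 and Macrophage 7 held 17 and 12 of the 60 HDM cells, whereas Macrophage 1 and Macrophage 3 held 1360 and 906 of the 3776 control cells. The alveolar macrophage markers summed to 36670 CPM in HDM and 11241 in control, and T cell markers to 114 CPM in HDM and 4.55 in control. The part of that in the result was not tested.

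**Figure D3:**
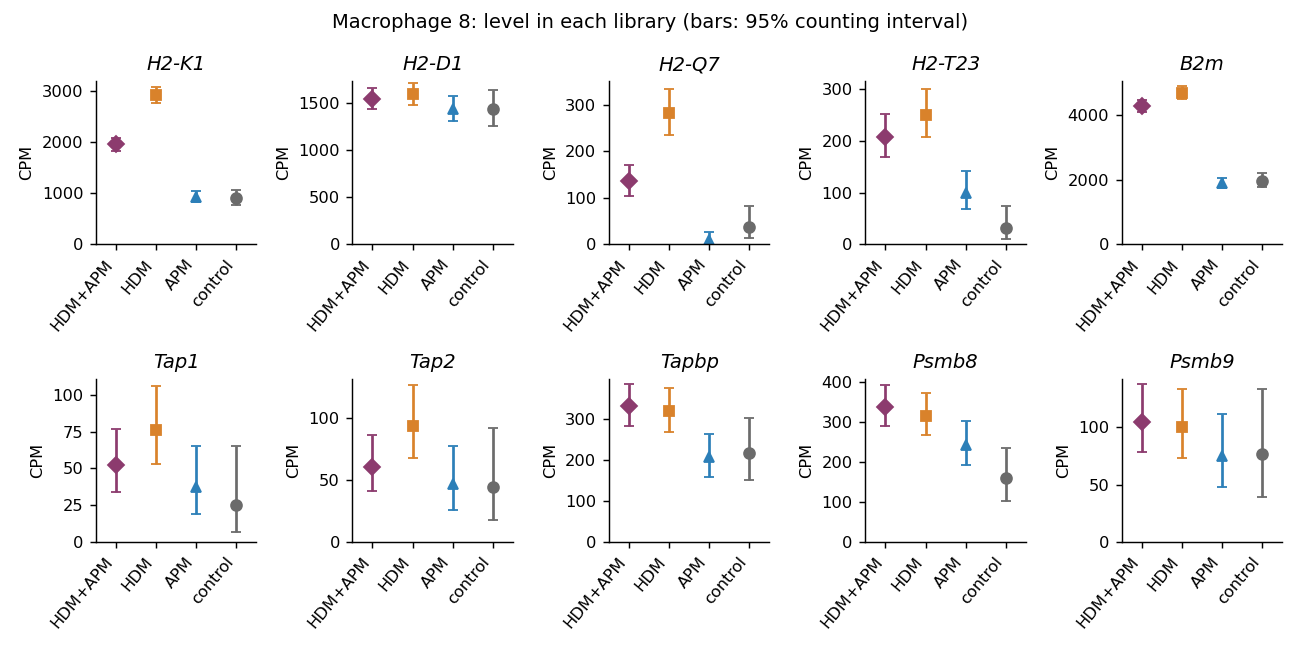
Level of each of the 10 genes in Macrophage 8 in the HDM+APM, HDM, APM and control libraries, left to right, in CPM, 1 panel per gene with its own axis from 0; points are levels and bars exact 95% counting intervals. H2-K1, H2-Q7, H2-T23 and B2m lie higher in HDM+APM and HDM than in APM and control, while H2-D1 lies between 1429 and 1585 CPM in all 4 libraries.

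The rest of the class I pathway was read from a list of 31 genes, of which 26 were in the matrix. In Macrophage 8, 9 of the 16 tested were higher in HDM and 0 lower, against 25.8% and 18.4% of all genes tested, and their log2 ratios had a median of 0.67. The largest were H2-Q6, a heavy chain, at 102 CPM in HDM and 6.36 in control on 47 and 1 UMIs, a ratio of 16.1 (2.75 to 649), and the interferon-response regulator Irf1, 3.77-fold (1.18 to 19.2). Pdia3 (ERp57), a disulfide isomerase of the loading complex, was 2.97-fold higher (1.96 to 4.70), the heavy chain H2-T22 2.2-fold (0.986 to 5.79) and the chaperone Canx 2.14-fold (1.64 to 2.85). In macrophages other than 8, 12 of 24 were called higher, against 32.0% of all genes tested. Tapbpl, with 1 HDM UMI, was the 1 called lower, against 13.1%. The 12 include H2-T24, whose 0 HDM UMIs were set to 3. The median was 0.58 on the log2 scale. H2-Q6 was 7.44-fold higher (4.21 to 12.4), Nlrc5, the class I transactivator, 5.69-fold on 4 HDM UMIs (1.48 to 15.7), Pdia3 2.50-fold (2.04 to 3.04) and Irf1 2.36-fold (1.31 to 3.94). Rfx5, a factor of the MHC enhanceosome, was 2.65-fold higher on 6 HDM UMIs (0.954 to 5.92), and H2-M2 2.65-fold on 2 HDM UMIs (0.311 to 10.2). H2-T24 had 0 UMIs in HDM and 22 in control, which at this depth shows neither a higher nor a lower level in HDM. The constitutive subunits Psmb5, Psmb6 and Psmb7 had ratios under 1 in both classes, and Psmb8 made up 68.1% of Psmb8 and Psmb5 in HDM (61.4 to 74.3), against 44.6% in control (31.3 to 58.5), in Macrophage 8. Of class I-like molecules in Macrophage 8, Hfe, which takes part in iron sensing, was 6.17-fold higher in HDM on 2 control UMIs (1.59 to 52.9), and Fcgrt, the neonatal Fc receptor, stood at 47.9 CPM in HDM and 121 in control, a ratio of 0.397 (0.205 to 0.775).

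APM against control asks what dust did without allergen, and 7 macrophage clusters held enough cells for it. H2-K1 was lower in APM in 6 of them, with ratios of 0.645 in Macrophage 7 (0.586 to 0.709), 0.645 in Macrophage 9 (0.534 to 0.777), 0.660 in Macrophage 5 (0.618 to 0.705), 0.759 in Macrophage 2 (0.714 to 0.806), 0.769 in Macrophage 3 (0.714 to 0.827) and 0.911 in Macrophage 1 (0.787 to 1.05). In Macrophage 8 it was 931 CPM in APM and 909 in control, a ratio of 1.02 (0.836 to 1.26). Tapbp was lower in all 7, with ratios from 0.560 in Macrophage 5 (0.479 to 0.653) to 0.951 in Macrophage 8 (0.619 to 1.48). H2-Q7 was lower in all 7, at 0.245 to 0.638. It had 1 APM UMI in Macrophage 1, where thinned cells turned the log2 ratio to 1.27, and 3 APM and 6 control UMIs in Macrophage 8, under the minimum of 20. Of the 7 intervals the 1 in Macrophage 7 lay below 1 (0.171 to 0.650). B2m was lower in all 7, at 0.868 to 0.997, and its intervals in Macrophage 5, Macrophage 8 and Macrophage 9 took in 1. Of the 2731 genes tested in all 7 clusters, B2m and Tapbp among them, 9.01% were lower in every cluster and 8.75% higher in every cluster. For the 6 clusters without Macrophage 8, where H2-K1 was lower throughout, 12.2% of the 3344 genes tested were lower in all 6 and 9.93% higher.

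H2-D1 did not share the pattern of H2-K1. Its ratio lay between 0.863 in Macrophage 7 (0.788 to 0.946) and 1.08 in Macrophage 3 (1.03 to 1.14). H2-T23 had a ratio above 1 in 5 of 7 clusters. In Macrophage 2 it stood at 136 CPM in APM and 85.6 in control, a ratio of 1.59 (1.30 to 1.96). The ratio was 1.32 in Macrophage 1, 1.19 in Macrophage 3 and 1.01 in Macrophage 5, with intervals that took in 1. In Macrophage 8 it was 3.13, whereas all macrophages as 1 class gave a log2 ratio of -0.12. For macrophages other than 8 summed, the log2 ratio of H2-T23 was -0.14. Psmb8 ranged from 0.697 to 1.53 and Psmb9 from 0.814 to 1.33, and Psmb9 in Macrophage 5 had 63.0 CPM in APM and 47.3 in control, a ratio of 1.33 (1.04 to 1.71). Tap2 was lower in 6 of 7 clusters and had its interval below 1 in Macrophage 3, at 0.613 (0.361 to 0.986). Tap1 rested on 1 to 81 UMIs per library and cluster, and its interval took in 1 in all 7. Macrophage 9, the cluster with the lowest immunoproteasome share, had 71.5 CPM of Psmb8 in APM and 103 in control, a ratio of 0.697 (0.382 to 1.24).

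**Figure D4:**
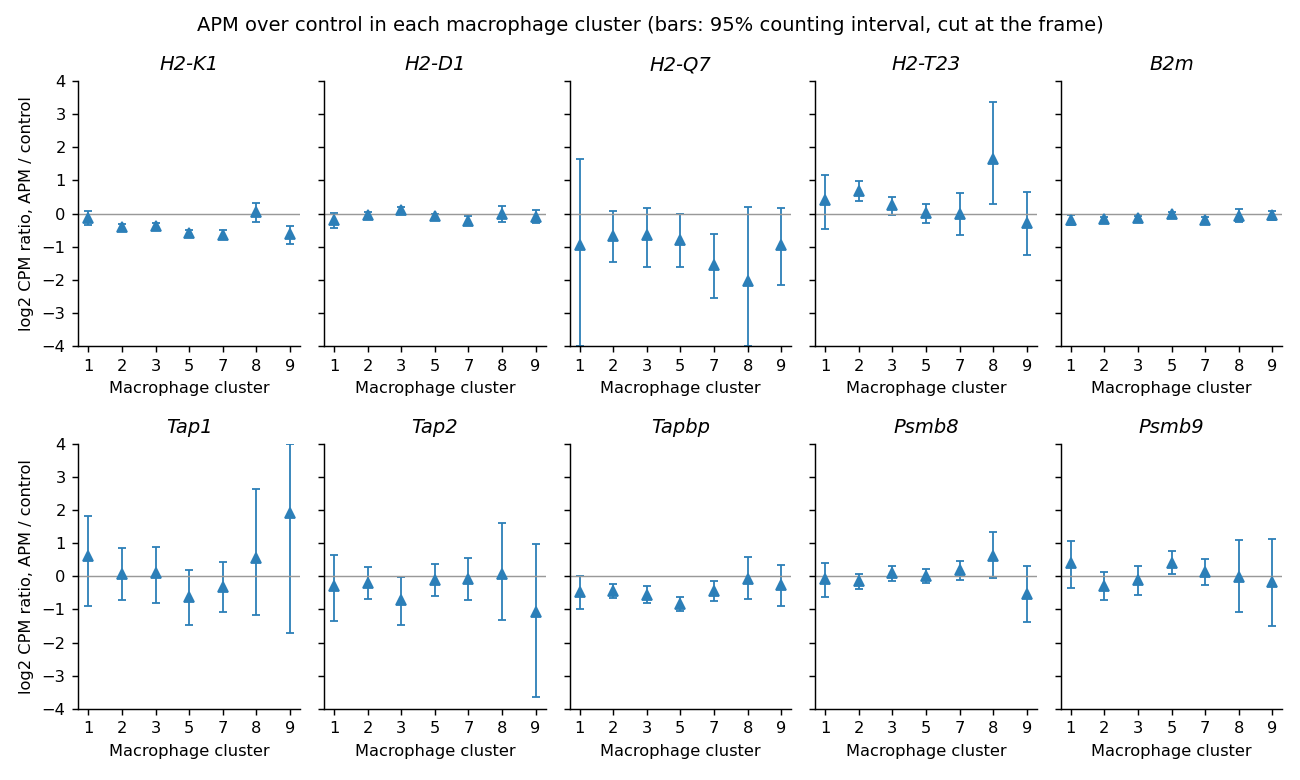
Log2 of the CPM ratio of APM over control for each of the 10 genes in the 7 macrophage clusters with at least 50 cells in both libraries; triangles are ratios, bars exact 95% counting intervals, cut at the frame, and the grey line marks equal levels. H2-K1 lies below the line in all clusters but Macrophage 8, and Tapbp and H2-Q7 lie below it in all 7.

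Most of these differences were under 1.5-fold. In Macrophage 5, 4 of 10 were called lower (H2-K1, H2-Q7, Tap1, Tapbp) and 0 higher, against 13.5% lower and 4.48% higher (17.9% either way) of all genes tested, whose median log2 ratio was -0.12, beside -0.09 for the 10. That count of 4 was 2 with 10 CPM added, 2 with the median ratio set to 1 and 0 at a fold of 2, and Tap1 turned to a log2 ratio of 1.44 with cells thinned to 1000 UMIs. In Macrophage 7 the calls were 2 lower (10.8% of all genes tested) and 0 higher (6.86%; 17.7% either way). In Macrophage 3 they were 2 lower (14.4%) and 0 higher (7.68%; 22.0% either way), and in Macrophage 9, of 8 tested, 2 lower (15.6%) and 0 higher (10.7%; 26.4% either way). In Macrophage 1 there was 1 lower (19.4%) and 1 higher (14.2%; 33.6% either way), and in Macrophage 2 also 1 lower (10.1%) and 1 higher (6.07%; 16.2% either way). In Macrophage 8, of 8 tested, 0 were lower (12.5%) and 2 higher (13.9%; 26.5% either way). Outside Macrophage 5 no cluster had more than 2 members called in a direction, which is near those backgrounds. Summed over macrophages other than 8, with 3501 APM and 3776 control cells, 2 of 10 were lower, H2-Q7 at 0.511 (0.406 to 0.639) and Tapbp at 0.657 (0.619 to 0.698), and 0 were higher, against 5.27% and 5.73% (11.0% either way). In that sum H2-K1 stood at 739 CPM in APM and 1087 in control, a ratio of 0.680 (0.662 to 0.698), and the median log2 ratio of the 10 was -0.24, beside 0.02 for all genes. The make-up of the sum differs, since Macrophage 4 had 1033 cells in APM and 22 in control, and epithelial markers came to 1843 CPM in APM and 457 in control, with 0 of 8 at 0 UMIs in either, while red blood cell markers came to 5664 CPM in APM and 504 in control. Their part in the result was not tested. Of the other class I pathway genes in that sum, 0 of 24 were higher and 4 lower, namely H2-M2 (ratio 0.324), H2-T24 (0.507), Nlrc5 (0.593) and Irf1, at 0.616 (0.509 to 0.745). In single clusters the other pathway genes called were few, with 0 in Macrophage 5 and 3 lower and 0 higher of 21 in Macrophage 7, except in Macrophage 1, where 4 of 21 were higher and 7 lower on 94 APM cells. The constitutive subunits Psmb5, Psmb6 and Psmb7 had ratios above 1 in all 7 clusters, with Psmb5 at 434 CPM in APM and 279 in control in Macrophage 2, a ratio of 1.55 (1.39 to 1.74).

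HDM+APM against HDM sets the combined exposure against allergen alone, and Macrophage 8 and T cells held enough cells. In Macrophage 8, with 110 HDM+APM and 139 HDM cells, H2-K1 stood at 1955 CPM in HDM+APM and 2915 in HDM, a ratio of 0.671 (0.617 to 0.729). H2-Q7 stood at 135 CPM in HDM+APM and 281 in HDM, a ratio of 0.480 (0.352 to 0.650), and Tap2 at 60.4 CPM in HDM+APM and 93.6 in HDM, a ratio of 0.645 (0.391 to 1.05). B2m had a ratio of 0.912 (0.859 to 0.969), whereas H2-D1 (0.969), Tapbp (1.04), Psmb8 (1.07), Psmb9 (1.05), H2-T23 (0.828) and Tap1 (0.687) all had intervals that took in 1. Called lower were 2 of 10 and higher 0, against 15.9% and 11.0% (26.9% either way) of the 5176 genes tested, which puts the count near the background. Of the other pathway genes 5 of 20 were lower and 0 higher, with Nlrc5 at 8.05 CPM in HDM+APM and 34.8 in HDM on 4 and 16 UMIs, a ratio of 0.231 (0.0563 to 0.717), H2-Q6 at 0.433 (0.248 to 0.733), Irf1 at 0.617 (0.342 to 1.09), H2-M3 at 0.617 (0.320 to 1.16) and Ifngr2, a chain of the interferon gamma receptor, at 0.625 (0.431 to 0.899). In this pair of libraries alveolar macrophage markers were near each other, at 35332 CPM in HDM+APM and 37949 in HDM, while red blood cell markers came to 42.3 CPM in HDM+APM and 6195 in HDM. B cell markers came to 278 CPM in HDM+APM and 54.4 in HDM, T cell markers to 48.3 in HDM+APM and 139 in HDM, and epithelial markers to 1702 in HDM+APM and 618 in HDM. The part of these in the result was not tested.

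In T cells, with 136 HDM+APM and 493 HDM cells, H2-K1 stood at 1999 CPM in HDM+APM (1840 to 2167) and 2406 in HDM (2297 to 2519), a ratio of 0.831 (0.756 to 0.912). H2-D1 went the other way, at 1992 CPM in HDM+APM and 1554 in HDM, a ratio of 1.28 (1.16 to 1.42). B2m had a ratio of 1.14 (1.06 to 1.21), and H2-Q7 was near equal, at 557 CPM in HDM+APM and 576 in HDM. Tap1 was the 1 member called, at 92.2 CPM in HDM+APM and 140 in HDM, a ratio of 0.659 (0.415 to 1.01), so 1 of 10 was lower and 0 higher against 18.5% and 12.0% (30.5% either way) of the 4949 genes tested. The median log2 ratio of the 10 was -0.03, beside -0.04 for all genes. Summed T cell markers came to 2460 CPM in HDM+APM and 2483 in HDM. Red blood cell markers came to 71.7 CPM in HDM+APM and 2619 in HDM, monocyte-derived macrophage markers to 335 in HDM+APM and 52.8 in HDM, B cell markers to 253 in HDM+APM and 71.3 in HDM, and epithelial markers to 916 in HDM+APM and 330.1 in HDM. Their part in the result was not tested.

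HDM+APM against APM sets allergen against PBS in dust-exposed mice. In Macrophage 8, with 110 HDM+APM and 214 APM cells, B2m stood at 4285 CPM in HDM+APM and 1896 in APM, 2.26-fold higher (2.06 to 2.48), and H2-K1 at 1955 CPM in HDM+APM and 931 in APM, 2.10-fold higher (1.84 to 2.40). H2-Q7 was 14.4-fold higher on 3 APM UMIs (4.74 to 71.8), H2-T23 2.08-fold (1.39 to 3.20) and Tapbp 1.61-fold (1.20 to 2.17). H2-D1 stood at 1536 CPM in HDM+APM and 1429 in APM, a ratio of 1.08 (0.957 to 1.21), as it had differed little between HDM and control. Called higher were 5 of 10 and lower 0, against 16.9% and 19.1% (36.0% either way) of the 4726 genes tested, with a median log2 ratio of 0.59 beside -0.03 for all genes. Of the other pathway genes 10 of 16 were higher and 1 lower. H2-Q6 was 2.85-fold higher (1.05 to 9.62), Pdia3 2.34-fold (1.72 to 3.22), H2-T22 2.14-fold (1.13 to 4.34), Psmb10 2.04-fold (1.37 to 3.11) and Calr, a chaperone of the loading complex, 1.93-fold (1.58 to 2.37). Alveolar macrophage markers in these cells summed to 35332 CPM in HDM+APM and 6758 in APM, with 0 of 12 at 0 in either. Red blood cell markers summed to 42.3 CPM in HDM+APM and 19541 in APM, and median depth was 4840 UMIs in HDM+APM and 1218.5 in APM. B cell markers came to 278 CPM in HDM+APM and 15.6 in APM, and classical monocyte markers to 542 and 62.3. Monocyte-derived macrophage markers came to 1690 CPM in HDM+APM and 3365 in APM, and epithelial markers to 1702 and 3455. The part of all these differences in the result was not tested.

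In T cells, with 136 HDM+APM and 52 APM cells, H2-D1 was the 1 member called lower, at 1992 CPM in HDM+APM and 3244 in APM, a ratio of 0.614 (0.523 to 0.724). H2-T23 was higher, at 195 CPM in HDM+APM and 63.9 in APM on 4 UMIs, a ratio of 3.05 (1.13 to 11.6). Tap1 had a ratio of 5.77 on 1 APM UMI (0.952 to 236) and Tapbp of 1.75 on 6 (0.747 to 4.99). B2m had a ratio of 1.30 (1.13 to 1.5), H2-K1 of 1.25 (1.01 to 1.56) and Tap2 of 0.784 (0.367 to 1.86). The calls were 3 higher and 1 lower of 10, against 18.9% and 27.4% (46.3% either way) of the 2074 genes tested, with a median log2 ratio of 0.45 beside -0.14 for all genes. Of 13 other pathway genes 3 were higher and 1 lower. H2-T22 had a ratio of 2.78 (1.02 to 10.6) and Psme2 of 1.74 (0.996 to 3.29), while Ifngr1, the ligand-binding chain of the interferon gamma receptor, stood at 495 CPM in HDM+APM and 1103 in APM, a ratio of 0.449 (0.335 to 0.608). Red blood cell markers in these T cells came to 71.7 CPM in HDM+APM and 9172 in APM. Classical monocyte markers came to 1394 CPM in HDM+APM and 208 in APM, and B cell markers to 253 and 47.9. Monocyte-derived macrophage markers came to 335 CPM in HDM+APM and 128 in APM, and epithelial markers to 916 and 1838. T cell markers came to 2460 CPM in HDM+APM and 3068 in APM. The part of these differences in the T cell result was not tested. These 4 comparisons share libraries with each other, so their values are not independent.

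The unlike course of H2-K1 and H2-D1 was followed as the H2-K1 share of their summed UMIs, a measure that does not depend on the total of a library and was added after these values were seen. In Macrophage 8 the share was 56.0% in HDM+APM (53.6 to 58.4), 64.8% in HDM (62.7 to 66.8), 39.4% in APM (35.9 to 43.0) and 38.8% in control (33.8 to 43.9). In T cells it was 50.1% in HDM+APM (47.2 to 53.0), 60.8% in HDM (59.0 to 62.5) and 33.0% in APM (27.7 to 38.6). HDM stood above HDM+APM in B cells 1, with 43.6% in HDM+APM (36.5 to 50.9) and 58.8% in HDM (54.0 to 63.5), and in macrophages other than 8, with 48.4% in HDM+APM (44.9 to 52.0) and 61.2% in HDM (58.1 to 64.3). Granulocyte-like cells had 36.4% in HDM+APM (28.2 to 45.2) and 48.0% in HDM (41.4 to 54.7), which overlap, and 16.4% in APM (8.15 to 28.1). Dendritic cells had 50% in HDM (45.6 to 54.4) and 30.0% in APM (25.4 to 35.0).

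Between APM and control the share was lower in APM, with intervals apart, in Macrophage 2 (45.8% in APM, 52.1% in control), Macrophage 3 (33.9% and 41.9%), Macrophage 5 (36.7% and 45.3%), Macrophage 7 (44.5% and 51.7%) and Macrophage 9 (29.5% and 37.8%). The intervals overlapped in Macrophage 1 (51.5% in APM, 50.3% in control), Macrophage 4 (40.8% and 40.6%), Macrophage 6 (44.5% and 55.2%) and Macrophage 8. Macrophage clusters of 1 library differed as well, from 29.5% in Macrophage 9 to 51.5% in Macrophage 1 in APM. In HDM+APM, B cells 2 had 42.0% and the cells named classical monocyte 37.3%. Because H2-K1 and H2-D1 are close copies, reads assigned to 1 of them could belong to the other, and that part was not tested.

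**Figure D5:**
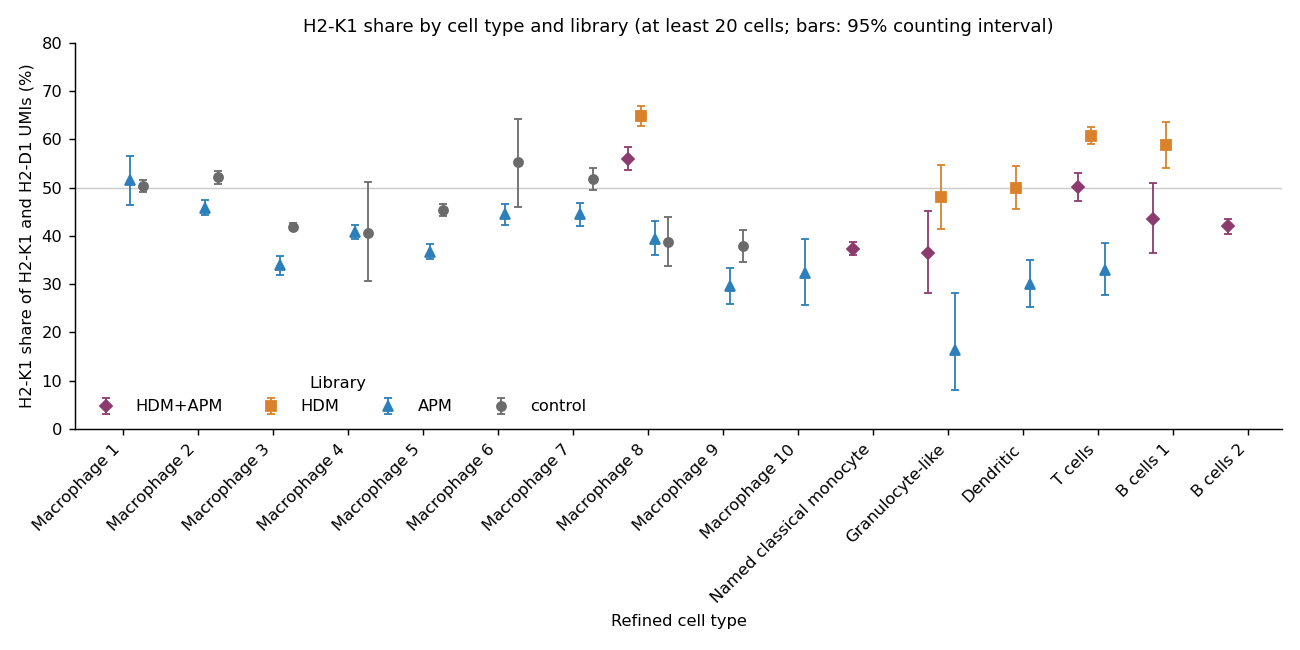
Share of H2-K1 among H2-K1 and H2-D1 UMIs, in percent, for each refined cell type with at least 20 cells in a library, except the cells named epithelial, which are not drawn. Symbols mark the HDM+APM, HDM, APM and control libraries, bars are exact 95% counting intervals, and the grey line marks 50%. In each of the cell types shown with HDM beside HDM+APM or APM, the HDM point is the highest, for example 60.8% in T cells, against 50.1% in HDM+APM and 33.0% in APM.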

How the data were processed

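The deposited table holds UMI counts per gene and cell, which the authors deposited without normalization. It comes from 10x 3′ v2 libraries, per the labels' protocols. Build mm10, Seurat 2.3.4 and Cell Ranger 2.2.0 are listed without a role, per the submitters' processing notes. Cell types are the authors' deposited annotation. All 9925 cells were kept, and no doublet caller was run. Barcodes shared by libraries numbered 42, in 84 cells. A further 23 cells are epithelial in the coarse and macrophage in the refined annotation, 13 of them in Macrophage 8, and were kept by refined type.

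UMIs were summed per cell type and library and divided by the total UMIs of the same cells (Python 3.11.15, numpy 2.4.6, scipy 1.17.1, pandas 2.3.3, matplotlib 3.10.9). Levels per library are given for at least 20 cells, and cell types were compared with at least 50 cells in both libraries, which gave 14 pairs over 4 comparisons. A gene entered a comparison from 20 UMIs in the 2 libraries together, and 0 UMIs were set to 3. Where 1 library of a pair held far fewer UMIs, a gene with 0 UMIs in that library could therefore be called higher in it. Depth limits precision, and PCR and pooling errors are not in the intervals. The calculation was tested on simulated data with known ratios.

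Members and lists were chosen with earlier results of these data known. The text names all 10 members, up to 6 genes by size of the other pathway genes past the fold in a class, the 5 genes most like the members' mean and the 1 most like each member. A gene that this rule would name is not reported here. Irf1 in macrophages other than 8, the class I receptors, Hfe, Fcgrt and the constitutive subunits were named after their values were seen. So were the H2-K1 share, the removal of the 23 cells and the removal of the 84 cells. Alternatives were CPM added before ratios, the median ratio set to 1, a mean over cells, cells thinned to 1000 UMIs, free RNA of 5% subtracted, no minimum of UMIs, no mitochondrial or ribosomal protein genes, macrophages as 1 class, equal cluster shares and a fold of 2.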

Additional observations from a re-analysis of the deposited data

How the results depend on the processing

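No paired analysis was possible because each group is 1 library, and leaving out a replicate is impossible for the same reason. Equal cluster shares could not be run for HDM against control in macrophages other than 8, where no cluster held enough cells of both libraries. The median log2 ratio of the members was set against the median lower and median upper bound of their own intervals. It stayed between those bounds in 145 of 145 recomputed values. That band is a typical interval of a single gene and not the counting spread of the median, so it is a loose check. It ranged from 0.78 to 1.33 for HDM against control in Macrophage 8, from 0.58 to 0.93 in macrophages other than 8, and from 0.49 to 1.06 for HDM+APM against APM in Macrophage 8. Of the recomputed log2 ratios of single members 1331 stayed, 73 moved and 4 reversed. Those 4, all for APM against control, were H2-Q7 in Macrophage 1 at 1.27, Tap1 in Macrophage 1 at -0.0032 and Tap1 in Macrophage 5 at 1.44, each with cells thinned to 1000 UMIs, and H2-T23 in Macrophage 8 at -0.12 with all macrophages as 1 class. Each rests on few UMIs or on other cells, and the cause was not tested.

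Counts of members past the fold, both directions together, were more fragile where they were small, and stayed within 1.5 times in 109 cases and moved in 50. For HDM against control they ranged from 5 to 8 in Macrophage 8, and in macrophages other than 8 a fold of 2 left 4. For APM against control a fold of 2 left 0 in Macrophage 1, 2, 3, 5 and 9 and in macrophages other than 8, and 1 in Macrophage 7 and 8. With 10 CPM added the count was 0 in Macrophage 1 and 3 and in macrophages other than 8, 1 in Macrophage 2 and 8, and 2 in Macrophage 5. With 50 CPM added it was 0 in Macrophage 1, 2 and 3 and in macrophages other than 8, and 1 in Macrophage 5, 7, 8 and 9. With thinned cells it was 5 in Macrophage 3, 2 in Macrophage 5, 1 in Macrophage 2 and in macrophages other than 8, and 0 in Macrophage 8. A mean over cells gave 1 in Macrophage 1, Macrophage 8 and macrophages other than 8, the median ratio set to 1 gave 2 in Macrophage 5 and 1 in Macrophage 8, and equal cluster shares gave 1 in macrophages other than 8. In Macrophage 9 no minimum of UMIs gave 4, and removal of the 23 cells of mixed annotation gave 1. For HDM+APM against HDM in Macrophage 8 the count was 1 with 10 or 50 CPM added, with the median ratio set to 1, without mitochondrial and ribosomal protein genes, with all macrophages as 1 class and at a fold of 2. In T cells it was 0 with 10 or 50 CPM added, with the median ratio set to 1, with 5% free RNA subtracted and at a fold of 2, and 2 with thinned cells. For HDM+APM against APM it was 8 in Macrophage 8 with all macrophages as 1 class and 2 in T cells at a fold of 2. The other pathway genes past a fold of 2 numbered 1 in Macrophage 8 and 1 in macrophages other than 8 for APM against control, 2 in Macrophage 8 and 0 in T cells for HDM+APM against HDM, and 5 in Macrophage 8 for HDM+APM against APM. The cause of these moves was not tested, beyond the stricter fold itself.

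The summed level of the 10 genes over that of macrophages other than 8 was 2.19 in dendritic cells, 1.93 in T cells, 1.58 in Macrophage 8, 1.05 in the cells named classical monocyte and 0.330 in the cells named epithelial, over summed libraries. Within HDM it was 1.23 in dendritic cells, 1.06 in T cells and 1.14 in Macrophage 8. Without mitochondrial and ribosomal protein genes the same ratios were 2.45, 2.79, 1.66, 1.32 and 0.291, so that T cells stood above dendritic cells. As a mean over cells they were 2.43, 2.14, 1.5, 1.13 and 0.504, with thinned cells 2.36, 2.04, 1.47, 1.11 and 0.448, and with 5% free RNA subtracted the last was 0.296. Thinned cells gave a Psmb8 share of 39.3% and a Psmb9 share of 16.4% in macrophages other than 8. Of the 5 genes most like the members, 3 were the same with 50 CPM added and 1 with each cluster taken per library. The H2-K1 share moved in 16 of 116 recomputed values.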
